A study of Rattus norvegicus with 24 samples.

Results

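Ribosomal protein genes encode the protein part of the cytosolic ribosome. On the Affymetrix rat expression array, 57 probe sets carried a single gene symbol of this family, that is Rpl or Rps followed by a number, Rplp0 or Rpsa, with the kinase genes Rps6k and the binding protein gene Rps19bp1 left out. They covered 50 genes of the 14217 genes with a single-symbol probe set, and each gene was followed through its brightest probe set by mean. There were 34 genes of the large (60S) and 16 of the small (40S) subunit. A filter on low values kept 46 of them for tests and removed Rpl30, Rpl39l1, Rpl3l and Rps4x-ps1. Another 36 probe sets list several symbols, one of them ribosomal, and no gene is named from them.

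Peripheral blood mononuclear cells were isolated on Ficoll from female Wistar rats and hybridised on 24 arrays, 2 per group and 1 rat per array. The paper states that rats were killed after their blood was drawn. Time points are therefore different rats, and a change over time is a difference between groups of rats. Healthy rats (NOCIA, NORA in the labels) were sampled at baseline (NOCIA_B), at 1 hour (NOCIA_E) and at 34 days (NOCIA_A). Other rats were given bovine type II collagen in Freund's adjuvant, with a booster, to induce arthritis (CIA, RA in the labels). They were sampled at baseline (CIA_B) and, in 4 arms, at 1 hour (suffix _E) and 34 days (suffix _A). The 4 arms received acupuncture-like needle stimulation (MS, labelled AP), weekly methotrexate into the peritoneum (MTX), saline injections (PLA) or isoflurane at sampling with no other therapy (ANE), where PLA, MTX and MS rats were sampled under ether. All arthritic groups share the collagen immunisation, and the age of the rats is unknown here. Anaesthetic and arm cannot be told apart where ANE is set against another arm. The paper does not name the anaesthetic of CIA_B or of the healthy rats. A difference in anaesthetic may therefore enter ANE_E and ANE_A against CIA_B, and the ANE change against that of healthy rats. Its part was not tested.

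Each subunit is built from ribosomal RNA and many proteins, nearly all present in a single copy, so that their mRNAs are among the most abundant of a dividing or protein-making cell. Most of these mRNAs begin with a terminal oligopyrimidine (TOP) tract, a C at the cap followed by a run of C and T, through which the kinase complex mTORC1 and the protein Larp1 control their translation together. In blood, resting lymphocytes carry them at high levels, whereas platelets, which have no nucleus, inherit their RNA from megakaryocytes.

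RefSeq promoters (assembly GRCr8) were matched for 41 of the 50 genes by gene identifier, each from 250 bases before to 50 bases after the annotated start. No promoter was matched for Rpl23a, Rpl27, Rpl30, Rpl37-ps2, Rpl37a, Rpl7, Rps29, Rps4x-ps1 and Rps9. The sequences below show a pyrimidine stretch near the annotated start, found there in some of these genes and not in others. They cover 30 bases before and 20 bases from the annotated start on, read 5′ to 3′ in the gene's direction. Capitals mark a stretch of at least 6 bases of C or T that begins with C within 10 bases of the annotated start. The last 2 genes have none in that window, but in both such a run lies further upstream within the printed bases. Whether the annotated start is the start of the mRNA was not tested.
Rplp0, chr12:46718371-46718420, minus strand: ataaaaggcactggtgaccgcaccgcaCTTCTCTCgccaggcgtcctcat
Rpl19, chr10:83519034-83519083, plus strand: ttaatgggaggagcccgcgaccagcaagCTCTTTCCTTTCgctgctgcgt
Rps15, chr7:10068096-10068145, minus strand: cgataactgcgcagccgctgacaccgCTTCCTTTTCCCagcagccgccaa
Rps3a, chr2:173827023-173827072, minus strand: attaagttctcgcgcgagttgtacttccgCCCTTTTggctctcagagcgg
Rpl28, chr1:78083513-78083562, minus strand: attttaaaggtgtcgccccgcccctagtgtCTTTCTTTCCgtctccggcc
Rps6, chr5:106420521-106420570, minus strand: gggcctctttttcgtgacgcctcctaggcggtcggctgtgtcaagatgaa
Rpl18, chr1:105325240-105325289, plus strand: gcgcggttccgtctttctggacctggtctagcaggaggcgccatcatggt

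Such a stretch was present in 23 of 41 ribosomal protein promoters (56.1%) and in 17.8% of all 33469 promoters of the table. ACTTCCG, a motif of the ETS type searched on both strands of the 300 bases, was in 11 of 41 (26.8%) against 6.32% of all promoters, and AAGATGG, of the YY1 type, in 8 of 41 (19.5%) against 7.01%. In Rps3a the ACTTCCG letters run directly into the pyrimidine stretch. The motifs can share bases only at their edges, no test was made, and a match is a description of letters and not a site.

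The family split into a very bright and a dim class. The cut between them, a mean log2 level of 12, was chosen after the gap was seen, which lay between Rpl21 at 12.80 and Rpl7l1 at 8.90. There were 38 bright genes (12 of 40S, 26 of 60S) with means from 12.80 to 14.47 and a median of 13.64, with the dimmest, Rpl21, brighter than 99.4652% of all probe sets, whose median was 5.56. The brightest were Rps29 (14.47), Rps23 (14.23), Rpl27a (14.10), Rpl37a (14.05) and Rps6 (14.03), where Rps6 is the classic substrate of the S6 kinases downstream of mTORC1. Levels between genes are probe set signals, not per length, so their order is that of signals only.

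**Figure D1:**
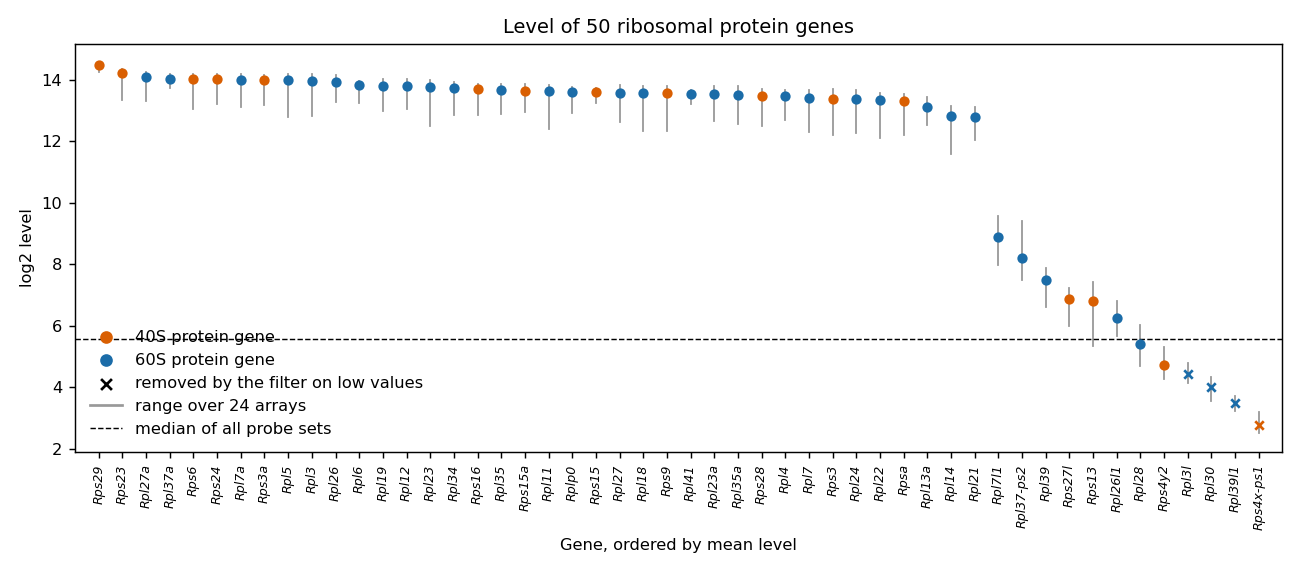
Log2 level (vertical axis) of the 50 ribosomal protein genes ordered by mean (horizontal axis). Points are means over 24 arrays, grey lines the range, crosses genes removed by the filter, and the dashed line the median of all probe sets (5.56). The 38 bright genes sit at 12.80 or above and the other 12 at 8.90 or below.

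The 12 dim genes had means from 2.78 (Rps4x-ps1) to 8.90 (Rpl7l1). The 5 dimmest were Rps4x-ps1 (2.78), Rpl39l1 (3.49), Rpl30 (4.0), Rpl3l (4.44) and Rps4y2 (4.74). They included paralogs of family members (Rpl7l1, Rpl26l1, Rps27l, Rpl3l, Rps4y2 and Rpl39l1), the pseudogenes Rpl37-ps2 and Rps4x-ps1, and the canonical genes Rpl28, Rpl30, Rpl39 and Rps13. A dim probe set of a canonical gene gives the signal of that probe set and not the level of its main mRNA. The 36 probe sets that list several symbols ran from 6.98 to 14.05 with a median of 13.69, close to the bright genes. Ribosomal protein genes have many processed pseudogenes, so a probe set can also take signal from near copies, which was not tested.

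In each array the 38 bright genes moved almost as one. The median of their 703 pairwise Pearson correlations over 24 arrays was 0.96 and the lowest 0.72, with the arrays' own composition shared by every pair. Over the 20 arrays left after removing 4 that stood apart, the median was 0.78 and the lowest 0.04. With the mean of the other bright genes, 36 of 38 correlated above 0.9 over 24 arrays, and over 20 arrays 35 of 38 lay above 0.7 while Rps29 had the lowest value, 0.47. These are descriptions over arrays and carry no test.

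The 4 arrays were MS_A rep 1, MS_E rep 1, PLA_E rep 2 and ANE_E rep 1. The mean level of the bright genes, each centred on its own mean over 24 arrays, was -0.87, -0.49, -0.28 and -0.13 in them on the log2 scale. In the other 20 arrays it ran from -0.06 (NOCIA_E rep 2) to 0.19 (CIA_B rep 2), so the 4 were the lowest and did not overlap the rest. All 38 bright genes had their lowest level in MS_A rep 1, as did 44 of the 46 genes tested. CIA_B rep 2 held the highest level of 16 bright genes, MTX_E rep 2 of 9 and MS_E rep 2 of 8.

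**Figure D2:**
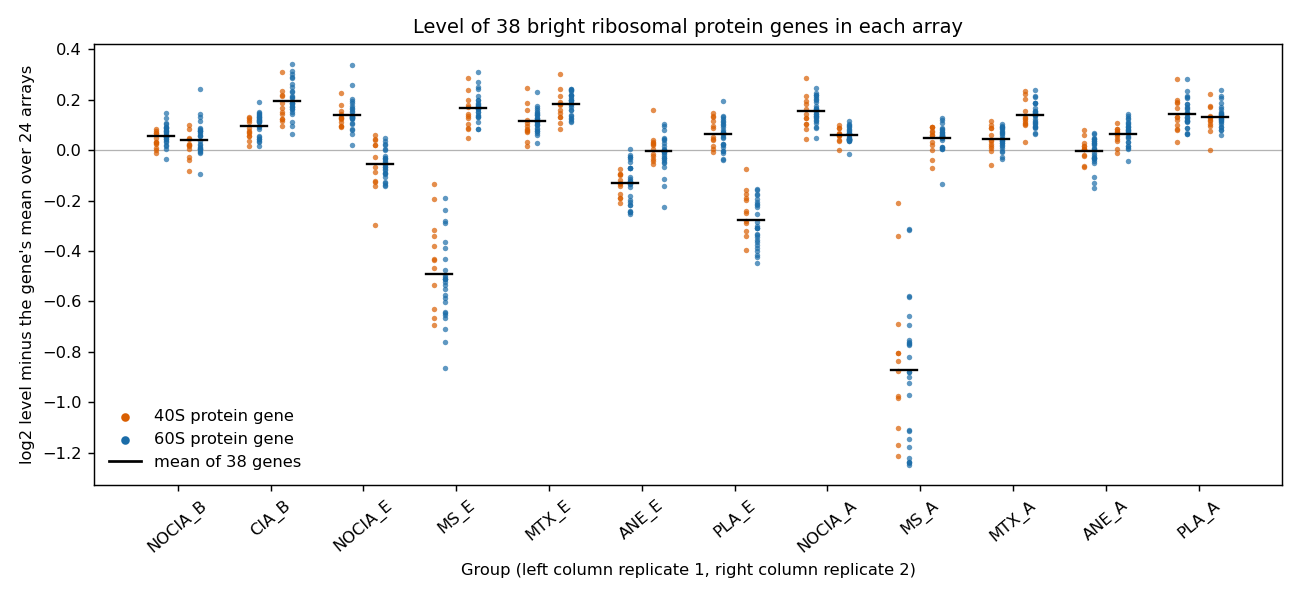
Log2 level of each of the 38 bright genes minus its mean over 24 arrays (vertical axis), by group with replicate 1 left and replicate 2 right (horizontal axis). Points are genes, orange for 40S and blue for 60S, and black bars the mean. MS_A rep 1 (-0.87) and MS_E rep 1 (-0.49) lie far below their partners at 0.05 and 0.17.

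The 4 arrays had been named in an earlier look at these data for having the most platelet transcripts, so that their platelet level was fixed by the choice. The mean centred level of 17 platelet markers was 1.41 in MS_A rep 1, 1.23 in MS_E rep 1, 1.01 in PLA_E rep 2 and 0.95 in ANE_E rep 1, and from -0.72 to 0.51 in the other 20. Itga2b, the integrin chain of the platelet fibrinogen receptor, stood at 13.93 in MS_A rep 1 and 13.28 in MS_A rep 2 against a median of 12.69 in the other 20 arrays, and Pf4 at 14.71, 14.64 and 14.42. Selp alone of the 17 was not above that median in MS_A rep 1, with 6.45, 6.82 and 6.54. Markers of T cells (18 genes) were at -1.41 in MS_A rep 1, -0.91 in MS_E rep 1, -0.26 in PLA_E rep 2 and 0.02 in ANE_E rep 1, and between -0.39 and 0.61 in the others. The part of platelets or lymphocytes in the ribosomal values was not tested, and in such mixed cells fewer cells of a type and less RNA per cell cannot be told apart.

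Other marker lists differed among the 4 arrays. B cell markers (7 genes) were at -1.29 in MS_A rep 1 and -0.67 in MS_A rep 2 but at 0.10 in MS_E rep 1. Monocyte markers (13 genes) were at -1.36 in MS_A rep 1, -1.06 in MS_E rep 1 and -1.28 in ANE_E rep 1 but close to 0 in PLA_E rep 2. The 12 NK and cytotoxic markers were at -1.39 in MS_A rep 1 and at 1.13 in ANE_E rep 1, and neutrophil markers (8 genes) at -1.25 and -1.34. The 10 red cell markers ran from -0.92 (NOCIA_A rep 1) to 0.72 (MS_E rep 1), and 11 liver markers reached 3.34 in ANE_E rep 1 and stood at 1.56 and 1.69 in NOCIA_B against -0.39 and -0.62 in CIA_B. Some members went against their list mean in MS_A rep 1. Cr2 of B cells was at 8.72 against a median of 7.88 in the other 20 arrays, and Cx3cr1 of monocytes at 6.76 against 6.52. Red cell markers were mixed there, with Epor at 9.46 against 6.78 and Slc4a1 at 9.98 against 11.40. Among markers of the mononuclear cells Cd3e had a mean of 11.36, Cd14 of 10.68 and Cd79b of 9.05. Cd4, of the T cell list, lay at 5.36, below the median of all probe sets (5.56). Markers of other cells ran from bright (Hbb at 14.78, Pf4 at 14.47, S100a9 at 12.65) to dim (Lcn2 at 5.09). Alb, a liver marker, lay at 6.54. For Gapdh, the 3′ control probe set exceeded the 5′ one by log2 differences that ran from 0.01 to 0.20 over all arrays and that of Actb from 0.36 to 0.84, with 0.14 and 0.36 in MS_A rep 1.

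**Figure D3:**
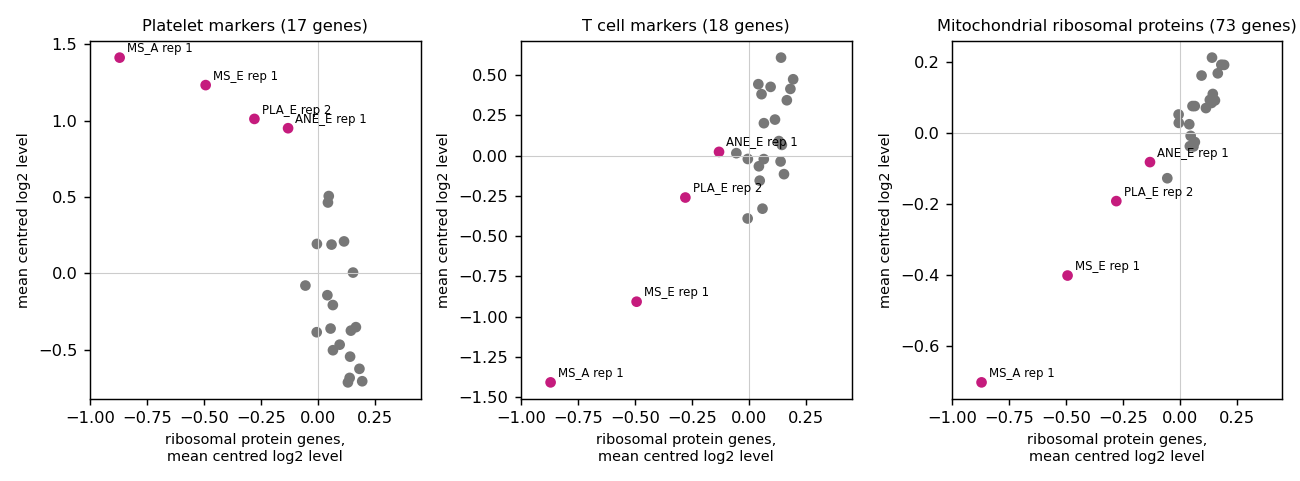
Mean centred log2 level of the 38 bright ribosomal protein genes (horizontal axis) against platelet markers, T cell markers and mitochondrial ribosomal protein genes (vertical axes). Each point is 1 of 24 arrays, and the 4 named arrays are in pink. Platelet markers reach 1.41 where ribosomal genes are at -0.87, and mitochondrial ribosomal genes are at -0.70 there.

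Arthritis at baseline was compared with healthy rats first. All 38 bright genes were higher in CIA_B than in NOCIA_B, by 0.02 (Rps6) to 0.22 with a median of 0.10 on the log2 scale, which is below the median SE of 0.25 (limma, n = 2 per group). The groups did not overlap for 28 of the 38, where 28.6% of all probe sets did not overlap in that direction. None of the 46 genes was called at an adjusted p under 0.05, where limma called 0.00483% of all probe sets, and 2 of 46 passed an unadjusted p of 0.05 against 3.81% of all. These were Rpl28, higher by 0.62 (SE 0.29), and Rps27l, higher by 0.51 (SE 0.18), both dim. Median differences were 0.10 over the 46 and 0.01 over all probe sets tested. In the same comparison liver markers had a median of -1.66, with 11 of 11 below 0, 0 called and 10 at an unadjusted p under 0.05, and B cell markers one of -0.72, with 7 of 7 below 0 and 0 called. The difference between 3′ and 5′ control probe sets of Actb was 0.56 and 0.84 in NOCIA_B, the latter the highest of all arrays, against 0.54 and 0.59 in CIA_B. The part of these in the ribosomal values was not tested, and they bear on every comparison with NOCIA_B.

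At 1 hour the family lay below CIA_B in 3 of the 4 arms, each with 1 of the 4 low arrays. The median over the bright genes was -0.32 in MS_E, -0.21 in ANE_E, -0.24 in PLA_E and 0.00 in MTX_E against CIA_B. The bright genes were below CIA_B in 38 of 38 cases in MS_E, ANE_E and PLA_E and in 18 of 38 in MTX_E. Without the 4 arrays the medians were 0.03, -0.13, -0.07 and 0.00, with 1 array left in each of MS_E, ANE_E and PLA_E. The bright genes then lay below CIA_B in 11 of 38 cases in MS_E, 37 in ANE_E and 33 in PLA_E. The ANE_E array left, rep 2, had neutrophil markers at 2.12 and monocyte markers at 0.81, whose part was not tested. All comparisons with CIA_B share its 2 arrays, of which rep 2 held the highest ribosomal level of all.

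Called genes were 0 of 46 in each of these arms. Limma called 0.00967% of all probe sets in MS_E, 0.0145% in MTX_E, 0.0338% in ANE_E and 0% in PLA_E. At an unadjusted p under 0.05 there was 1 gene of 46 in MS_E (8.30% of all probe sets) and 1 in ANE_E (10.8%), both times Rpl39, a small protein of the exit tunnel, at -0.54 (SE 0.23) and -0.52 (SE 0.23). The Rpl39 probe set is dim. There were 0 of 46 in MTX_E (1.24%) and 0 in PLA_E (6.89%). The lowest difference in PLA_E was that of Rps13 at -0.51 (SE 0.42), and in MTX_E that of Rpl39 at -0.27 (SE 0.23).

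MS_E and PLA_E, both with 1 low array, gave a median of -0.04 over the bright genes against each other. Of 46 genes 0 were called where limma called 0% of all probe sets, and 0 passed an unadjusted p of 0.05 against 2.52%. Without the 4 arrays this median was 0.09, with 36 of 38 genes above 0. In healthy rats NOCIA_E differed from NOCIA_B by a bright median of -0.0032, with 0 of 46 called (0.00483% of all) and 1 of 46, Rps27l, at an unadjusted p under 0.05 (3.57% of all).

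MS at 34 days gave the widest separation from CIA_B. Rpl14, a 60S protein, had log2 levels of 11.59 and 12.96 in MS_A rep 1 and rep 2 against 13.02 and 13.12 in CIA_B. Rps3, of the mRNA entry side of the 40S head, had 12.22 and 13.48 against 13.45 and 13.70. Rps29, also of the 40S head, had 14.26 and 14.40 against 14.54 and 14.57. In each case rep 1 was the low array, while rep 2 lay closer to the CIA_B arrays.

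Over the 38 bright genes the difference of MS_A from CIA_B ran from -0.79 (Rpl14) to -0.21 (Rpl41) with a median of -0.56, and all probe sets had a median of -0.15. The groups did not overlap for 32 of 38, where 38.4% of all probe sets did not overlap in that direction. Of the 46 genes, 1 was called (2.17%) where 6.96% of all probe sets were called, and 30 passed an unadjusted p of 0.05 (65.2%) where 37.1% of all did. Of these 30, 29 were lower and 1, Rpl37-ps2, was higher. With a change above 2-fold asked for as well as an unadjusted p under 0.05, Rpl37-ps2 alone passed. The study applied these limits to MAS5 values and also removed genes by detection call, which was not done here.

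The gap between the 2 MS_A arrays exceeded the gap between groups. Rep 1 was lower than rep 2 in all 38 bright genes, by a median of 0.90 (log2 difference -0.90, from -1.37 to -0.14). In the 12 groups this median size was lowest in NOCIA_B, at 0.02, and reached 0.65 in MS_E, 0.34 in PLA_E and 0.19 in NOCIA_E. Without the 4 arrays the median difference of the bright genes of MS_A from CIA_B was -0.09, below 0 in 38 of 38, and 0 genes were called, where 0.725% of all probe sets were. The MS_A array left, rep 2, had the highest platelet level of the other 20 (0.51), and in this comparison without the 4 arrays platelet markers still had a median of 1.18 and T cell markers of -0.47. Without MS_A rep 2 in place of rep 1, 41 of 46 were called (89.1%), where limma called 48.1% of all probe sets.

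Against PLA_A, which was sampled on the same day, the values were close to those against CIA_B. The median over the bright genes was -0.54, from -0.82 (Rpl18) to -0.16 (Rps29), with 38 of 38 not overlapping, where 32.8% of all probe sets did not overlap in that direction. Of 46 genes 0 were called, where limma called 0% of all, and 25 passed an unadjusted p of 0.05, all lower, against 23.2% of all. Without the 4 arrays the median was -0.09, with 38 of 38 below 0. Both comparisons use the same MS_A arrays and are not independent.

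The other arms at 34 days stayed near CIA_B. The median over the bright genes was -0.04 in MTX_A, -0.10 in ANE_A and 0.01 in PLA_A. Called genes were 0 of 46 in each, where limma called 0% of all probe sets in each. At an unadjusted p under 0.05 there were 0 of 46 in MTX_A (5.85% of all), in ANE_A (1.48%) and in PLA_A (4.85%). In ANE_A all 38 bright genes lay below CIA_B, 30 of them without overlap (28.8% of all probe sets in that direction), and the lowest was Rpl13a, a protein of the 60S subunit, at -0.25 (SE 0.22). MTX_A against PLA_A gave -0.04, with 38 of 38 below 0, 0 of 46 called (0% of all) and 0 at an unadjusted p under 0.05 (0.739% of all).

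**Figure D4:**
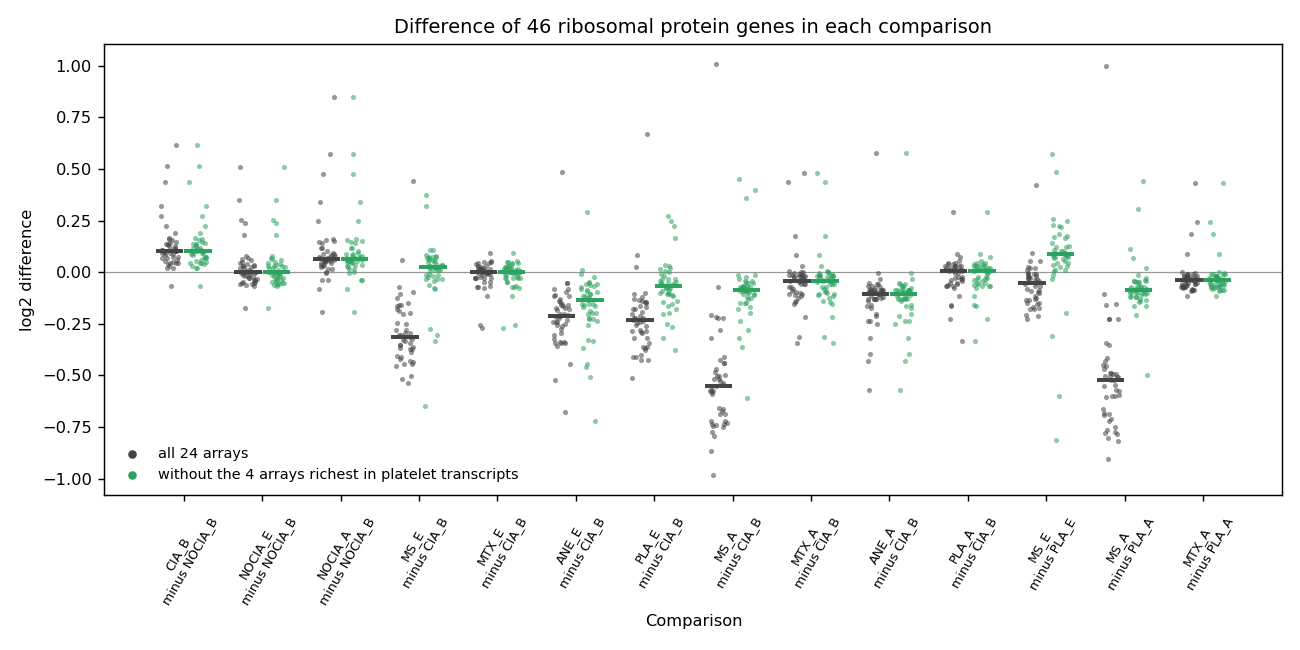
Log2 difference (vertical axis) of 46 ribosomal protein genes in 14 comparisons (horizontal axis). Points are genes and bars medians, in grey for all 24 arrays and in green without the 4 arrays richest in platelet transcripts. In MS_A minus CIA_B the median is -0.55 with all arrays and -0.09 without the 4, and the gene near 1.01 is Rpl37-ps2.

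Healthy rats at 34 days differed from other healthy rats at baseline in many probe sets, and the differences in this family were small. NOCIA_A differed from NOCIA_B by a median of 0.06 over the bright genes, from -0.08 (Rpl13a) to 0.16. None of the 46 genes was called where limma called 12% of all probe sets, and 2 of 46 passed an unadjusted p of 0.05 against 24.3% of all. These 2 were the paralogs Rpl7l1, higher by 0.85 (SE 0.33), and Rpl26l1, higher by 0.57 (SE 0.23), with adjusted p of 0.116 and 0.133 in limma. Among the markers, against that 12%, 6 of 7 of B cells, 5 of 11 of liver, 3 of 12 of NK and cytotoxic cells and 2 of 18 of T cells were called lower and 1 of 8 of neutrophils higher, and those of platelets, monocytes and red cells had 0 called. Their part in the ribosomal values was not tested.

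The 34-day change of each arm was also set against that of healthy rats. For MS, 0 of 46 genes were called (0.0338% of all probe sets) and 3 passed an unadjusted p of 0.05 (19.9% of all), namely Rps27l, Rpl7l1 and Rpl28. For MTX the counts were 0 (0.0242%) and 0 (7.50%), for ANE 0 (2.86%) and 1, Rpl28 (15.8%), and for PLA 0 (0.00967%) and 0 (9.80%). Over all 12 groups a moderated F test called 0 of 46 genes (2.26% of all probe sets), with 1 of 46, Rps27l, at an unadjusted p under 0.05 (17.5% of all).

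The genes of both subunits moved together. The mean level of the 26 bright 60S genes minus that of the 12 bright 40S genes ran from -0.08 (MS_E rep 1) to 0.03 (NOCIA_B rep 2) over 24 arrays, with an SD of 0.03. The mean level itself had an SD of 0.24. In MS_A against CIA_B the median was -0.56 for 40S and -0.56 for 60S, and in MS_E -0.27 and -0.33.

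By place in the ribosome the differences of MS_A from CIA_B overlapped. In the 40S head, which holds Rps3, Rps15, Rps16, Rps28 and Rps29, the median of 5 genes was -0.50, from -0.72 (Rps3) to -0.22 (Rps15), with 0 called and 2 of 5 at an unadjusted p under 0.05. At the exit of the 60S tunnel, where nascent chains leave, Rpl19, Rpl23a, Rpl26, Rpl35 and Rpl39 had a median of -0.53, with 0 of 5 called and 2 at an unadjusted p under 0.05. The Rpl39 probe set is dim (mean 7.48) and may not give the level of its main mRNA. The head and the tunnel exit each had 40% at that limit, against 65.2% of all 46 genes and 37.1% of all probe sets. Of all probe sets 6.96% were called. Rplp0 and Rpl12, of the stalk that recruits elongation factors, differed by -0.41 (SE 0.22) and -0.47 (SE 0.25).

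Rpl5 and Rpl11 bind the 5S ribosomal RNA and, when free, the p53 inhibitor Mdm2. Rpl5 had levels of 12.81 and 14.04 in MS_A against 14.11 and 14.19 in CIA_B, and Rpl11 had 12.42 and 13.70 against 13.75 and 13.82. Their differences were -0.72 (SE 0.29) and -0.73 (SE 0.30), with limma adjusted p of 0.0966 and 0.0953. Of the genes on the list mutated in Diamond-Blackfan anaemia, an inherited red cell aplasia, 11 were tested, with a median of -0.57, 0 called (6.96% of all probe sets) and 8 at an unadjusted p under 0.05, all lower (72.7%, against 65.2% of all 46 genes and 37.1% of all probe sets).

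Further members with known roles lay in the same range in MS_A against CIA_B. Rpl3, next to the peptidyl transferase centre, differed by -0.69 (SE 0.30), Rpsa, also known as the laminin receptor, by -0.67 (SE 0.31), Rps6 by -0.57 (SE 0.25), and Rpl22, which T cell development requires, by -0.75 (SE 0.32). None of the 4 was called (adjusted p from 0.108 to 0.125 in limma), and without the 4 arrays their differences were -0.08, -0.08, -0.07 and -0.10.

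The bright genes differed in how far they moved. The SD over 24 arrays was lowest for Rps29 (0.08), Rpl37a (0.11), Rpl41 (0.11), Rps15 (0.12) and Rpl6 (0.16), and highest for Rpl14 (0.37), Rpl18 (0.35), Rps3 (0.34), Rps9 (0.33) and Rpl23 (0.32). Across the 38 genes mean level and SD had a Pearson correlation of -0.51 and a Spearman correlation of -0.58, a description over genes that share their arrays. Signals near the top of the scale may be compressed, which was not tested. The median SD of the bright genes was 0.24 over 24 arrays and 0.25 within pairs of arrays. All probe sets tested had a median SD of 0.31.

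Rps27l stood apart, a paralog of Rps27 known as a target of p53. In baseline arrays its log2 levels were 6.48 and 6.73 in NOCIA_B and 7.08 and 7.15 in CIA_B. In MS_A they were 6.0 and 6.51, so that both arrays lay below both of CIA_B, and rep 2 lay between those of NOCIA_B. At 34 days the levels were 6.87 and 7.02 in NOCIA_A, 6.94 and 7.05 in MTX_A, 6.90 and 7.08 in ANE_A and 6.99 and 7.01 in PLA_A. At 1 hour they were 7.23 and 7.0 in NOCIA_E, 6.75 and 6.84 in MS_E, 7.04 and 6.96 in MTX_E, 6.84 and 6.96 in ANE_E and 7.04 and 6.89 in PLA_E. The 2 MS_A arrays and those of NOCIA_B were the 4 lowest of 24.

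Rps27l was the gene called in MS_A against CIA_B, lower by 0.87 on the log2 scale (log2 difference -0.87, SE 0.18, n = 2 per group, 1.82-fold, limma adjusted p 0.0274). Without MS_A rep 1 the difference was -0.61 with an adjusted p of 0.361, without MS_A rep 2 -1.12 with 0.00137, and without either CIA_B array the adjusted p was 0.178 or 0.197. Without MS_A rep 1 or either CIA_B array limma called 0 of all probe sets, and without MS_A rep 2 it called 48.1%. With the 4 arrays left out, which leaves MS_A with rep 2 alone, the difference was -0.61 and the gene was not called. Against PLA_A it was -0.75 (SE 0.18), not called at an adjusted p of 0.179. The difference between the 34-day changes of MS and of healthy rats was -1.21 (SE 0.25), with a limma adjusted p of 0.0868 in all arrays. A call of this difference without the 4 arrays rests on MS_A rep 2 alone. Its level of 6.89 on average was far below that of the bright genes, and its promoter had none of the 3 motifs.

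Rpl7l1, a nucleolar paralog of Rpl7, had levels of 8.57 and 8.57 in NOCIA_B and 9.57 and 9.27 in NOCIA_A. All values and calls of Rpl7l1 are those of the brighter of its 2 probe sets (means 8.90 and 8.54). Those of the other are not given here. In arthritic rats Rpl7l1 was at 8.86 and 8.93 in CIA_B, 9.28 and 9.46 in MTX_A, 9.18 and 9.19 in PLA_A and 8.72 and 8.81 in ANE_A, and at 7.97 and 9.25 in MS_A. Levels in MTX_A and PLA_A were above all of CIA_B, and those in ANE_A below, with differences of 0.48, 0.29 and -0.13 (SE 0.33 each) that were not called. Rpl26l1, a paralog of Rpl26, ran from 5.69 (MS_A rep 1) to 6.80 (NOCIA_A rep 1) and had 6.19 and 5.94 in NOCIA_B. The dim Rpl28 probe set ran from 4.70 to 6.03, with 5.27 and 4.80 in NOCIA_B, 5.73 and 5.58 in CIA_B and 5.11 and 5.05 in ANE_A.

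These 3 genes were called when the 4 arrays were left out, none of which is an array of the healthy rats, of CIA_B or of ANE_A. In NOCIA_A against NOCIA_B that made 3 of 46 (6.52%), where 30.4% of all probe sets were then called, so the share lay below that of all probe sets. The adjusted p was 0.00717 for Rpl26l1, 0.0432 for Rpl28 and 0.000492 for Rpl7l1, with differences of 0.57, 0.48 and 0.85. The ANE change at 34 days minus that of healthy rats was then -0.66, -1.05 and -0.98 for them, with adjusted p of 0.0338, 0.00771 and 0.00365, where 18.3% of all probe sets were called.

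Rpl37-ps2, a pseudogene by its symbol, ran opposite to the family. It was highest in MS_A rep 1 (9.41), MS_E rep 1 (9.06), PLA_E rep 2 (8.91) and NOCIA_E rep 2 (8.81), and lowest in CIA_B rep 2 (7.50). Its correlation with the mean of the bright genes was -0.86 over 24 arrays and -0.81 over 20. In MS_A against CIA_B it was higher by 1.01 (SE 0.47, adjusted p 0.133 in limma), and by 0.45 without the 4 arrays. Rps13, whose probe set is dim, had the lowest difference there, -0.98 (SE 0.42), from 5.36 and 6.84 against 7.07 and 7.09, and Rps4y2 was at -0.44 (SE 0.32).

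**Figure D5:**
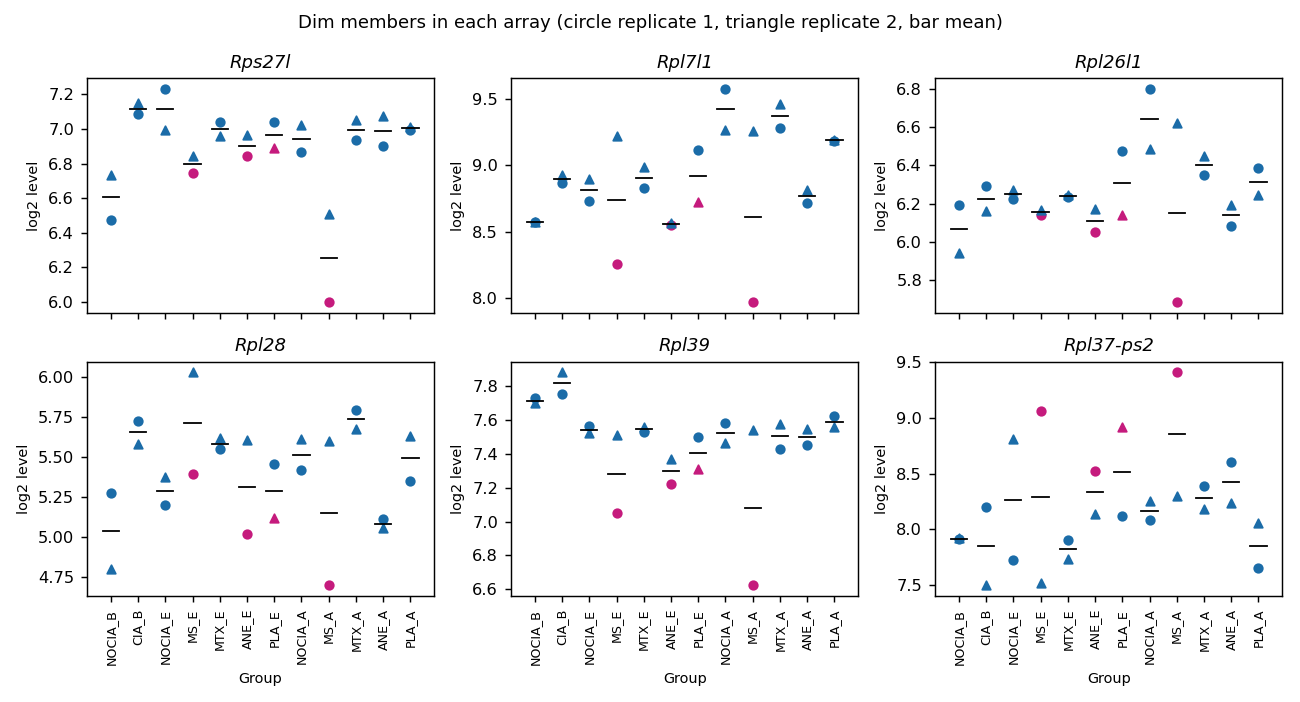
Log2 level (vertical axes) of 6 dim members by group (horizontal axes). Circles are replicate 1, triangles replicate 2, bars means, and pink marks the 4 arrays richest in platelet transcripts. Rps27l is lowest in both MS_A arrays and NOCIA_B, and Rpl37-ps2 is highest in MS_A rep 1 (9.41).

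Other parts of the translation machinery were followed through lists, whose counts stand against 6.96% of all probe sets called and 37.1% at an unadjusted p under 0.05 in MS_A minus CIA_B. In MS_A against CIA_B, 8 translation factors of the TOP type had a median of -0.78, with 0 called and, at an unadjusted p under 0.05, 5 lower and 1 higher. They included Eef2, the translocation factor (-0.93, SE 0.31), Naca, of the complex that shields nascent chains (-0.90, SE 0.39), and Eef1b2, an exchange factor of elongation (-0.80, SE 0.33). Rack1, the scaffold protein of the 40S head and the single gene measured among ribosomal proteins under other symbols, differed by -0.56 (SE 0.28).

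Of 33 ribosome biogenesis genes 1 (3.03%) was called, Nop16, lower by 0.95 (log2 difference -0.95, SE 0.23), and 32 lay below 0 with a median of -0.66. Fibrillarin (Fbl), the methyltransferase of ribosomal RNA, was at -1.24 (SE 0.40) and Ncl, nucleolin, at -0.84 (SE 0.37). Of 22 genes of RNA polymerases I and III and their factors, which make ribosomal and transfer RNA, 2 (9.09%) were called lower, Polr1a (-1.19, SE 0.25) and Polr3g (-1.31, SE 0.35), and the median was -0.57.

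Among 19 genes of mTORC1 and TOP mRNA control 1 (5.26%) was called higher and 0 lower. Eif4ebp1, which holds back the cap-binding protein until mTORC1 phosphorylates it, was higher by 1.54 (SE 0.33, limma adjusted p 0.0287), and by 1.27 without the 4 arrays. Larp1 was at -0.68 (SE 0.25) and Myc, a driver of ribosome synthesis, at -1.39 (SE 0.48), neither called, and the list had a median of -0.53. Of 11 ribosome quality control genes 1 (9.09%), G3bp1, was called, at -1.08 (SE 0.27), and the median was -0.68. Without the 4 arrays the list medians were -0.15 for the translation factors, -0.18 for biogenesis, -0.18 for the polymerases, -0.22 for mTORC1 and TOP control and -0.23 for quality control.

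In healthy rats between baseline and 34 days 4 of 33 biogenesis genes (12.1%) and 2 of 22 polymerase genes (9.09%) were called, near the 12% of all probe sets. Gnl3 (1.63, SE 0.39) and Nip7 (1.37, SE 0.36) of the biogenesis list rose while Bysl (-1.14, SE 0.34) and Nop16 (-0.75, SE 0.23) fell, and Polr1c rose (0.98, SE 0.26) and Polr3k fell (-1.35, SE 0.21). The medians of both lists were 0.21 and 0.13. In CIA_B against NOCIA_B none of the genes of the 6 lists was called.

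The ribosomes of mitochondria use other proteins, encoded by a separate set of nuclear genes. Their 73 genes had a mean centred level of -0.70 in MS_A rep 1, -0.40 in MS_E rep 1, -0.19 in PLA_E rep 2 and -0.08 in ANE_E rep 1, and between -0.13 and 0.21 in the other arrays. In MS_A against CIA_B 5 of 73 were called lower (6.85%, near the 6.96% of all probe sets), with a median of -0.62, and -0.23 without the 4 arrays, against -0.55 and -0.09 for the 46 cytosolic genes. The 36 probe sets with several symbols were at -0.87 in MS_A rep 1, -0.48 in MS_E rep 1, -0.31 in PLA_E rep 2 and -0.14 in ANE_E rep 1, close to the bright genes. In NOCIA_A against NOCIA_B 5 of 73 were called higher and 6 lower (15.1% together, against 12% of all probe sets), where 0 of 46 cytosolic genes were called, and the difference between the families was not tested.

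Among 11007 other genes with a tested probe set, the 10 most like the bright genes by Pearson correlation over 24 arrays were Eef1b2, Naca and Rack1 (0.99 each), Cct7, Phb2, Cct2, Cct4, Slc25a3, Psmb4 and Eif3h (0.98 each). Cct2, Cct4 and Cct7 are parts of the chaperonin that folds new proteins, and Psmb4 and Eif3h belong to the proteasome and an initiation factor. Over the 20 arrays Naca was the most alike (0.98), followed by Eif3h (0.95) and Psmb4 (0.95), while Phb2 was at rank 42 and Slc25a3 at rank 104. These correlations rest on shared arrays and are a description.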

How the data were processed

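Affymetrix rat arrays measured expression. The authors deposited log2 values, made per the labels by RMA in the affy package (version not given in the sources used here). Instead, the study's methods name MAS5 and its detection calls. Values ran from 2.18 to 15.02, with array medians from 5.49 to 5.58, and were used as RMA values.

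Of 31099 probe sets, 57 controls were left out, and a filter asked for 2 or more arrays in which a probe set exceeded that array's 40th percentile, which 20690 passed. Differences were fitted with limma 3.58.1 (R 4.3.3) over all 24 arrays, 12 groups of 2, with 12 residual degrees of freedom. Calls were made at a Benjamini-Hochberg adjusted p under 0.05 over all probe sets of a comparison. Since 2 arrays against 2 cannot reach an exact permutation p below 0.333, every p-value of this main fit uses the spread of all groups together. Precision is limited by 2 arrays per group. The steps were tested on simulated data.

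The genes named are called members, the extremes of difference, level and SD, members with set roles, up to 5 genes per list and the 10 genes most alike. Members and lists were chosen with earlier results of these data known, and the 4 arrays left out in places were found in such an earlier analysis. Which eligible genes to describe was chosen after their values were seen. Promoters came from RefSeq tables. Settings changed in turn were the replicate block, the arrays in the fit (compared groups alone), the filter (none or stricter), quantile normalization, median centring, limma-trend with robust eBayes, array weights, other probe sets or members, and leaving out each array. Python 3.11.15, pandas 2.3.3 and matplotlib made tables and plots.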

Additional observations from a re-analysis of the deposited data

How the results depend on the processing

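Under the alternatives, 315 counts of called genes stayed within 1.5 times the count reported and 24 did not, and 227 medians moved by less than the replicate SD of 0.25 and 11 did not. The exceptions follow, and their cause was not tested. The share of all probe sets called moved too and stands in brackets. With array weights there were 2 called genes in CIA_B minus NOCIA_B (4.93%), 4 in NOCIA_A minus NOCIA_B (34.4%), 0 in MS_A minus CIA_B (0%), 4 in the ANE and healthy difference of 34-day changes (23.4%) and 2 in the test over 12 groups (25.2%). With only the groups compared there were 2 in NOCIA_A minus NOCIA_B (33.8%), 0 in MS_A minus CIA_B (0%) and 2 in the ANE difference (20.8%). Quantile normalization gave 1 in NOCIA_A minus NOCIA_B (14.8%). Without the 4 arrays there were 3 in NOCIA_A minus NOCIA_B (30.4%), 0 in MS_A minus CIA_B (0.725%), 1 in the MS difference of changes (3.13%), 3 in the ANE difference (18.3%) and 2 over 12 groups (21%), and the medians were 0.0261 in MS_E minus CIA_B, -0.0860 in MS_A minus CIA_B and -0.0856 in MS_A minus PLA_A. In MS_A minus CIA_B, brightest probe sets without _x_at, _s_at or _a_at endings gave 2 calls (6.96%). These were Rps27l and a dim second probe set of Rps24 (mean 7.19), whose bright probe set was not called. The 36 probe sets with several symbols, an alternative chosen after seeing the data, gave 0 (6.96%). Leaving out each array in turn (a lone array is assumed to vary like the other groups) gave 0 to 3 calls in MS_E minus CIA_B, 0 to 41 in MS_A minus CIA_B, 0 to 40 in MS_A minus PLA_A, 0 to 38 in the MS difference of changes and 0 to 3 over 12 groups, with the highest count without MS_A rep 2 (MS_E rep 2 for MS_E), where 18.8%, 48.1%, 39.2%, 29.5% and 12.3% of all probe sets were called. The medians then ran from -0.64 to 0.0261 in MS_E minus CIA_B, -0.97 to -0.0860 in MS_A minus CIA_B, -0.37 to 0.26 in MS_E minus PLA_E and -0.98 to -0.0856 in MS_A minus PLA_A, with MS_A rep 1 or rep 2 and MS_E rep 1 or rep 2 giving the ends. With a replicate block 1 gene stayed called in MS_A minus CIA_B (28 of 46 at an unadjusted p under 0.05) and 0 in every other comparison of 2 groups. The share of all probe sets with this block is not given here. The labels state no pairing of the replicates. Deviations of same-numbered arrays correlated between groups from -0.76 to 0.805 with a median of -0.01. The value was over 0.1 in 25 of 66 pairs of groups, and a batch shared by some arrays was not tested. With 2 arrays a group small differences were not detectable.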
